A study of Arabidopsis thaliana with 11 samples.

Results

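Of 22746 probe sets on the ATH1 array, 49 (0.215%) met a rule for differences between the arf2 mutant and the Col wild type. They differed in the same direction with and without an inhibitor of brassinosteroid synthesis. Of these 49, 20 were higher and 29 were lower in arf2. Their mean change with the inhibitor was under 0.6 on the log2 scale, a limit that some members came near. They were chosen on the measured values themselves. A member had a mean log2 difference between arf2 and Col of at least 0.6 in size (1.52-fold) in the same direction on both media. On each medium all arf2 arrays lay on that side of all Col arrays, and brassinazole moved the mean by under 0.6 in both genotypes. Arrays that did not overlap were common by themselves. On mock 14.6% of all probe sets had every arf2 array above every Col array and 5.7% had every one below, and on BRZ the shares were 17.6% and 15.3%. The probe sets of QQS and EXPA16 met the same conditions and were left out together with several gene families and the plastid genes. Because these values made the choice, the differences below are a description of the members, with no test of any of them.

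RNA came from Arabidopsis seedlings 4 days old and grown in the dark. The Col groups were wild type and the arf2 groups carried a mutation in ARF2, whose allele the labels do not give. Seedlings grew on mock medium or on 0.5 µM brassinazole (BRZ), which blocks a step of brassinosteroid synthesis. There were 3 arrays each for Col mock, Col BRZ and arf2 mock and 2 for arf2 BRZ, described as independent biological replicates. All values are the authors' gcRMA intensities per probe set, or their log2. The RNA pools many cell types, so fewer cells of a type and less RNA per cell cannot be told apart.

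ARF2 is an auxin response factor, a transcription factor that binds auxin response elements in promoters and acts mostly as a repressor. Brassinosteroids promote the elongation of dark-grown hypocotyls, and the brassinosteroid-regulated kinase BIN2 is known to phosphorylate ARF2. Auxin and brassinosteroid responses share many target genes.

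The supplied annotation named 1 gene for 17 of the 49 members and 2 neighbouring genes for 1 further member. It named no gene for the other 31 (63.3%), against 38.4% of all probe sets. No probe set carried the name ARF2 in that annotation, so no value is given here as its level. Whether an unnamed probe set, a member or not, measures ARF2 cannot be told from it. The arrays did not share 1 level. Their median log2 intensities over tested probe sets were lowest for 2 Col mock arrays, at 5.93 (array 2) and 5.96 (array 1), then for arf2 mock array 3 at 6.09, and from 6.20 to 6.28 for the others. The mean intensity of the 25S rRNA control was 77.6 on Col mock and 209.7 on arf2 mock, against 104 and 48.8 for the same genotypes on BRZ. The counts of members with equal array medians are given below and differ from those as deposited. Why the arrays differ in level, and the part of the rRNA signal in the members' values, were not tested. PORB, a protochlorophyllide reductase of dark-grown seedlings, had a geometric mean of 3566 in Col and 2223 in arf2 on mock, and of 3827 and 2539 on BRZ, and its partner PORA was not named. The root hair markers EXPA7 and EXPA18, the 2 measured of 9, had geometric means between 19.9 and 26.4, near the lower quartile of the arrays. Of 13 greening markers 2 were named, LHCB4.1 and LHCB4.2, whose summed means lay between 5775 and 7561. Of 14 seed storage markers OLEO3 was named, at 845 and 465 in Col and arf2 on mock and 794 and 756 on BRZ, and of 7 other root markers 0 were. The part of these cell types in the members' values was not tested.

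The steps of the rule show how the members were reached. The threshold of 0.6 was passed on both media in the same direction by 147 probe sets, 78 higher and 69 lower. For 139 of them the arrays did not overlap on either medium. Of these, 51 also moved by less than 0.6 with BRZ in both genotypes, and 49 remained after the left-out genes. The share of all probe sets under that BRZ limit is not given here, so nothing is read from this step. In opposite directions on the 2 media 8 probe sets passed. On mock alone 619 were higher and 182 lower in arf2, and on BRZ alone 66 were higher and 133 lower.

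**Figure D1:**
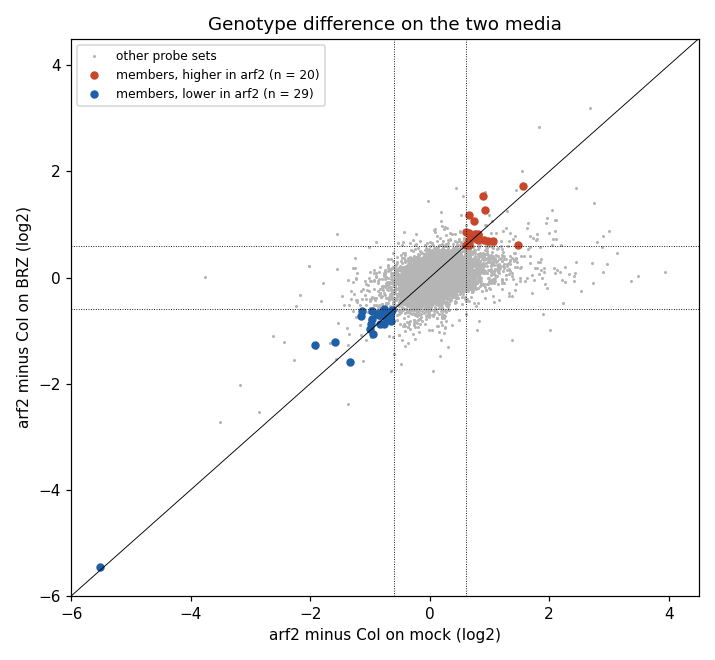
Mean log2 difference between arf2 and Col on mock (x axis) and on BRZ (y axis) for every probe set, with the 20 higher and 29 lower members in colour, the rule's threshold of 0.6 as dotted lines and equality as the diagonal. Most members lie near the diagonal, since the rule limits both BRZ changes. The member 247468_at stands far from the rest at -5.52 and -5.45.

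The largest measured difference among the members was that of 247468_at, for which the annotation names no gene. Its intensities on the replicate arrays were 1124, 1182 and 1440.3 in Col and 30.0, 28.5 and 23.1 in arf2 on mock, and 1229.6, 1345 and 1295 in Col and 28.9 and 30.3 in arf2 on BRZ. All 5 arf2 arrays were dim, near the lower quartile of the arrays, and all 6 Col arrays were bright. The log2 difference was -5.52 ± 0.12 (standard error, SE, of a fit to all arrays, as for every ± below) on mock and -5.45 ± 0.14 on BRZ. With arf2 so near the dim end of the arrays, these are differences of the deposited values and the size of the fall is not well measured. BRZ moved it by 0.05 in Col and 0.13 in arf2.

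Other unnamed members differed less. 248728_at read 86.6, 93.5 and 108 in Col and 43.9, 34.2 and 36.6 in arf2 on mock, and 117, 94.2 and 98.0 in Col and 39.6 and 29.6 in arf2 on BRZ. It was lower in arf2 by a log2 difference of -1.33 ± 0.14 on mock and -1.58 ± 0.16 on BRZ, and the genotypes did not overlap. The second largest fall on mock among the members was that of 254648_at, at -1.92 ± 0.12, with -1.27 ± 0.13 on BRZ. The 20 unnamed lower members had median differences of -0.86 on mock and -0.74 on BRZ. Among the 11 unnamed higher members, 260716_at read 75.8, 102 and 80.0 in Col and 136, 178 and 176 in arf2 on mock, and 64.2, 67.1 and 53.6 in Col and 208 and 106 in arf2 on BRZ. The 2 arf2 BRZ arrays lay far apart there, yet both were above every Col BRZ array. The unnamed higher members had median differences of 0.81 on mock and 0.80 on BRZ.

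Among the named members higher in arf2 were 3 genes for metabolic enzymes or enzyme-like proteins. AT3G05170, a member of the phosphoglycerate mutase family, read 21.5, 23.6 and 17.5 in Col and 61.8, 65.2 and 56.7 in arf2 on mock, and 16.9, 23.6 and 20.4 in Col and 64.1 and 68.9 in arf2 on BRZ. Its Col values were near or below the lower quartile of the arrays, and every arf2 array was well above it. The log2 difference was 1.56 ± 0.14 on mock and 1.72 ± 0.16 on BRZ. With Col that dim, its size is not well measured and no fold is given. AT1G54870, a short-chain dehydrogenase of the Rossmann-fold family, read 24.1, 26.6 and 28.2 in Col and 43.5, 62.0 and 37.6 in arf2 on mock, and 30.0, 35.9 and 30.1 in Col and 64.9 and 43.1 in arf2 on BRZ. All arf2 arrays exceeded all Col arrays, with differences of 0.83 ± 0.19 on mock and 0.73 ± 0.21 on BRZ, but both genotypes were dim. AT1G19540, related to isoflavone reductases, read 701, 666 and 709.9 in Col and 1155, 1163 and 969 in arf2 on mock, and 783, 1029 and 833 in Col and 1348 and 1347 in arf2 on BRZ. Within each medium arf2 was above Col by 0.66 ± 0.11 and 0.62 ± 0.13, while 1 Col BRZ array was brighter than the dimmest arf2 mock array.

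The other 6 named higher members were of various kinds. AT2G43590, a chitinase family protein, was the brightest, at 1044, 946 and 1029 in Col and 1731, 1477 and 1538 in arf2 on mock, and 1060.4, 1060.5 and 1174 in Col and 2134 and 1799 in arf2 on BRZ. Its arf2 arrays were all above its Col arrays, 1.57-fold on mock and 1.79-fold on BRZ. ARPN, which encodes the small blue copper protein plantacyanin, read 212, 189.9 and 270.0 in Col and 339, 416 and 301 in arf2 on mock, and 228, 223 and 193 in Col and 463 and 508 in arf2 on BRZ. Its highest Col mock array came close to its lowest arf2 mock array, and the genotypes were farther apart on BRZ. The difference of ARPN was 0.66 ± 0.15 on mock and 1.18 ± 0.17 on BRZ.

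AT1G04560, an AWPM-19-like membrane protein, read 36.4, 26.9 and 39.7 in Col and 56.9, 60.9 and 72.5 in arf2 on mock, and 24.5, 29.3 and 28.0 in Col and 93.5 and 66.4 in arf2 on BRZ. It was higher in arf2 by 0.90 ± 0.17 on mock and 1.54 ± 0.19 on BRZ, and arf2 BRZ array 1 was the brightest of all. Its Col BRZ values were near the lower quartile of the arrays, so the size of the difference on BRZ is not well measured. AT4G22470, of the lipid transfer and protease inhibitor family, stood just inside the threshold. Its intensities were 40.2, 32.9 and 49.4 in Col and 53.7, 58.1 and 73.3 in arf2 on mock, and 43.0, 29.9 and 43.3 in Col and 54.9 and 61.7 in arf2 on BRZ. The gap between the genotypes was small on both media, with differences of 0.60 ± 0.18 and 0.61 ± 0.20. ATHSP22.0, a small heat shock protein of the endoplasmic reticulum, read 64.2, 36.1 and 66.9 in Col and 97.6, 106 and 134 in arf2 on mock, and 48.6, 47.6 and 42.9 in Col and 66.9 and 82.7 in arf2 on BRZ. Its lowest arf2 BRZ array read the same as its highest Col mock array, although arf2 was above Col on each medium, by 1.06 ± 0.21 and 0.68 ± 0.24. AT5G59930, a protein with cysteine- and histidine-rich C1 domains, read 34.4, 22.8 and 45.3 in Col and 70.7, 73.3 and 52.8 in arf2 on mock, and 39.5, 37.7 and 31.7 in Col and 63.5 and 52.8 in arf2 on BRZ. All arf2 arrays were above all Col arrays, and the difference was 0.98 ± 0.22 on mock and 0.68 ± 0.24 on BRZ.

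**Figure D2:**
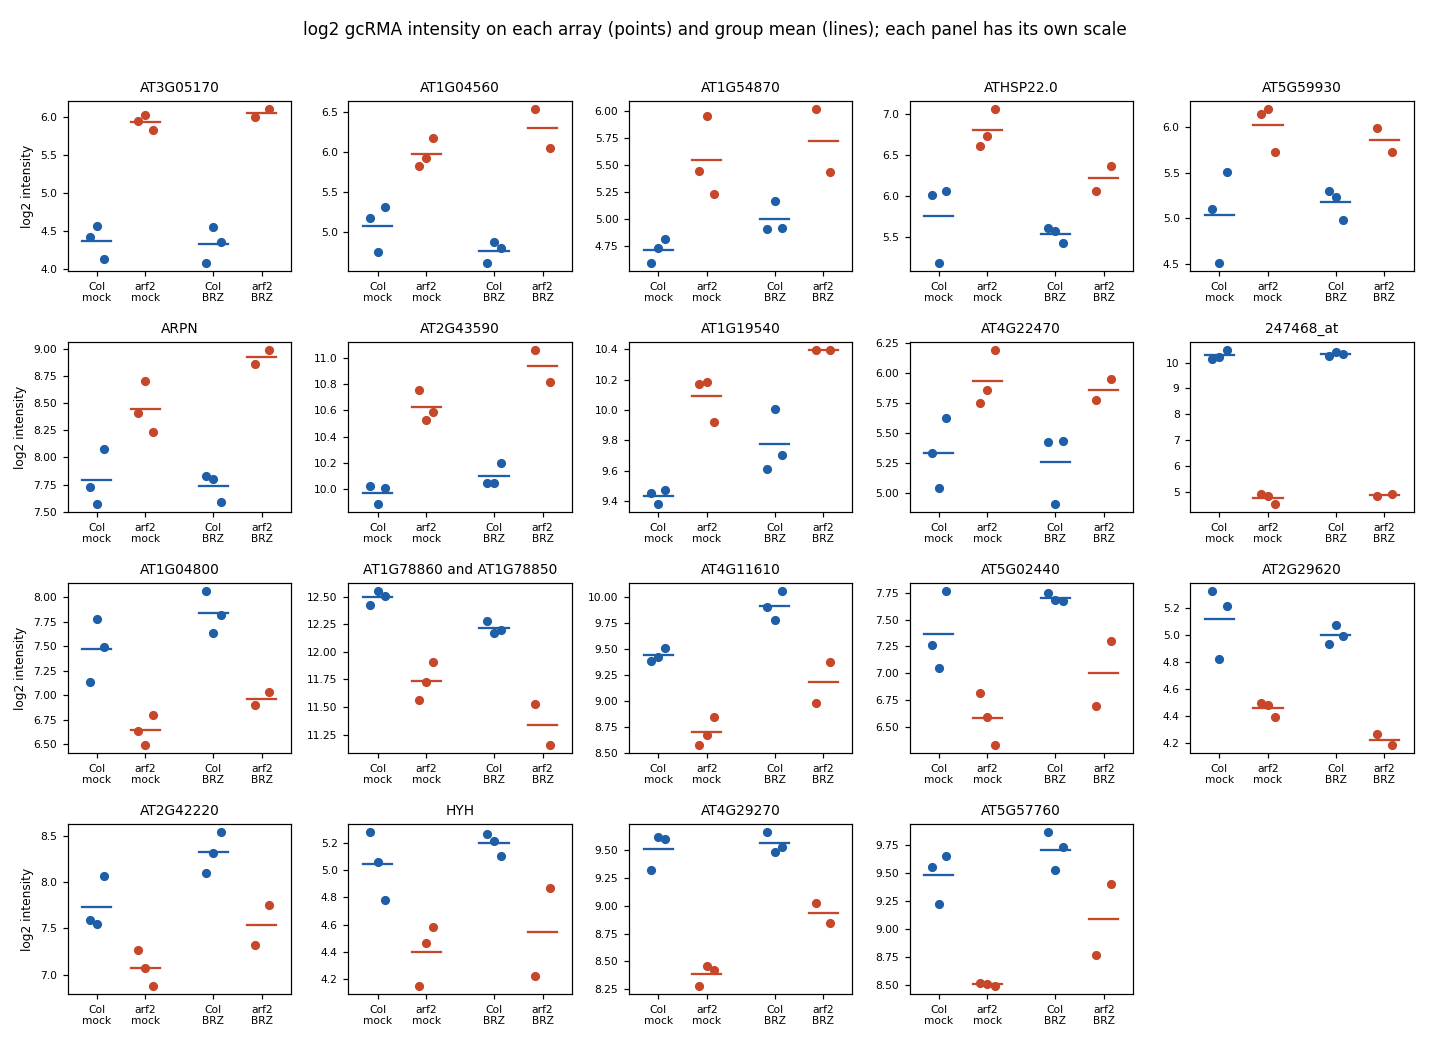
log2 gcRMA intensity of 19 members, the 18 that the annotation names and 247468_at, on each of the 11 arrays (points, Col in blue and arf2 in red) with group means as lines. Col and arf2 do not overlap on either medium, as the rule requires, and the 2 arf2 BRZ arrays differ visibly for HYH, AT5G02440 and AT5G57760.

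The named members lower in arf2 held 1 gene for a transcription factor. HYH, the bZIP homologue of the light-signalling factor HY5, read 38.9, 33.4 and 27.6 in Col and 17.7, 22.1 and 24.0 in arf2 on mock, and 38.5, 37.2 and 34.5 in Col and 18.6 and 29.2 in arf2 on BRZ. It was dim in both genotypes, and 1 arf2 BRZ array was above the dimmest Col mock array. Its differences were -0.64 ± 0.18 on mock and -0.65 ± 0.20 on BRZ. AT2G42220, a rhodanese-like protein of the chloroplast, read 193, 188 and 268 in Col and 154, 135 and 117 in arf2 on mock, and 275, 318 and 372 in Col and 159.5 and 215 in arf2 on BRZ. It was lower in arf2 on each medium, with differences of -0.66 ± 0.17 and -0.78 ± 0.20, and higher on BRZ than on mock in both genotypes, so that its arf2 BRZ and Col mock arrays overlapped.

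AT4G11610, with C2 domains and a phosphoribosyltransferase domain, combined a genotype difference with a BRZ change. It read 669, 687 and 727 in Col and 379.9, 408 and 460.2 in arf2 on mock, and 959, 878 and 1066 in Col and 504 and 663 in arf2 on BRZ. The genotype difference was -0.74 ± 0.12 on mock and -0.74 ± 0.14 on BRZ, and the mean on BRZ was 0.48 above that on mock in Col and 0.48 in arf2. The arf2 BRZ arrays lay below every Col mock array too. 1 probe set matches both AT1G78860 and AT1G78850, neighbouring genes for mannose-binding lectins, whose signals cannot be told apart. It was the brightest named member, at 5506, 6017 and 5826 in Col and 3029.8, 3379 and 3852 in arf2 on mock, and 4985, 4624 and 4705 in Col and 2949 and 2276 in arf2 on BRZ. All arf2 arrays were below all Col arrays, 1.70-fold on mock and 1.84-fold on BRZ.

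AT4G29270, an acid phosphatase of the HAD superfamily, read 642, 785 and 777 in Col and 309.8, 352 and 342 in arf2 on mock, and 813, 717 and 740.3 in Col and 520.5 and 459 in arf2 on BRZ. It was lower in arf2 on both media without overlap, with differences of -1.13 ± 0.11 on mock and -0.63 ± 0.12 on BRZ. AT1G04800, a glycine-rich protein, read 141, 219 and 179.8 in Col and 99.6, 90.0 and 111 in arf2 on mock, and 268, 199 and 226 in Col and 119 and 131 in arf2 on BRZ. All its arf2 arrays lay below all its Col arrays, with differences of -0.82 ± 0.16 and -0.88 ± 0.18. The other lower members were AT5G02440, AT5G57760 and AT2G29620. AT5G57760 read 755, 600.2 and 806 in Col and 367, 366 and 359 in arf2 on mock, and 937, 737 and 855 in Col and 438 and 679.8 in arf2 on BRZ. Its 3 arf2 mock arrays were close together and its 2 arf2 BRZ arrays were far apart. AT5G02440 differed by -0.78 ± 0.20 on mock and -0.70 ± 0.22 on BRZ, and AT2G29620, dim on every array, by -0.66 ± 0.12 and -0.77 ± 0.14.

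Differences on mock ran from 0.60 to 1.56 over the higher members and from -0.64 to -5.52 over the lower ones, the end near 0.6 being set by the rule. The median was 0.81 on mock and 0.77 on BRZ for the 20 higher members, and -0.83 and -0.74 for the 29 lower ones, against 0.05 and 0.01 (0.005 before rounding) over all tested probe sets. A 2-fold difference on both media was reached by 5 members, 1 higher and 4 lower, of 35 such probe sets on the array (0.154%). For 35 of the 49 the 2 differences were within 0.2 of each other, as they were for 14403 of all 22746 probe sets. The difference was larger on mock for 18 of the 29 lower members and 9 of the 20 higher ones, and for 13421 of all probe sets. The rule did not ask that arf2 and Col stay apart across media, yet for 38 members all 5 arf2 arrays lay beyond all 6 Col arrays, 17 of the 20 higher and 21 of the 29 lower. Over all probe sets 3.05% did so, and the members' count partly follows from the rule.

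How far the 2 differences of a member departed from each other is the interaction, the difference on BRZ minus that on mock. The limma fit called it for 0 of the 49 members at an adjusted p under 0.05, where 0.841% of tested probe sets were called, and 6 members had an unadjusted p under 0.05 (12.2%, against 9.25% of tested probe sets, smallest adjusted p of a member 0.158). The rule limited this value, so nothing is read from these counts. The half-width of its 95% interval was 0.29 to 0.72 over the members, with a median of 0.46, so a difference between media as large as 0.46 in either direction could not be told from none for a typical member. For AT4G11610 the interaction was 0.00 (95% interval -0.40 to 0.41). AT1G04560 had 0.64 (95% interval 0.08 to 1.19) and ARPN had 0.53 (95% interval 0.04 to 1.02), both toward a larger difference on BRZ. The largest departure went the other way, with -0.88 (95% interval -1.48 to -0.27) for 263231_at, a higher member with differences of 1.49 on mock and 0.61 on BRZ. Differences of the lower members 254648_at, 253660_at and AT4G29270 were also smaller on BRZ, the interactions being 0.65 (95% interval 0.27 to 1.03), 0.43 (95% interval 0.14 to 0.71) and 0.50 (95% interval 0.15 to 0.85). These intervals are not adjusted for the number of members or for the choice by the rule, which limited both BRZ changes. Their 95% coverage does not hold for members chosen this way, so no departure is read as established.

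Within the limit of 0.6, the BRZ changes of the lower members were more often above 0 than those of the higher ones as deposited. Both genotypes had a BRZ change above 0 for 19 of the 29 lower members and for 5 of the 20 higher ones, against 39.1% of all probe sets. Both were below 0 for 5 of the 29 and 9 of the 20, against 30.1%. With equal array medians the counts above 0 were 11 of 29 and 2 of 20, against 4569 of 22746 probe sets, with the median BRZ change of the lower members in Col at -0.05 instead of 0.13. The median change of the lower members in arf2 was 0.22 as deposited and 0.14 with equal medians. The higher members had medians of -0.07 in Col and -0.06 in arf2 as deposited, and of -0.25 and -0.14 with equal medians. limma called a rise with BRZ in Col for 2 lower members, AT4G11610 and 256309_at, where 6.2% of tested probe sets rose. It called a rise in arf2 for 3 lower members, AT4G29270, 252746_at and 253660_at, where 2.92% rose. A fall was called for the higher member 262118_at in both genotypes and for 254648_at in Col, where 2.74% of tested probe sets fell in Col and 2.89% in arf2. The rule limited the size of all these changes.

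**Figure D3:**
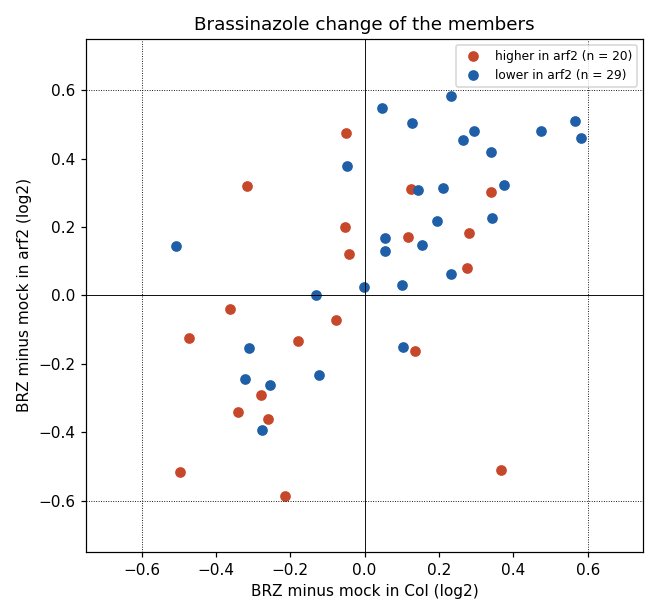
Mean log2 change from mock to BRZ in Col (x axis) and in arf2 (y axis) for the 20 members higher and the 29 lower in arf2, with the rule's limit of 0.6 as dotted lines. Of the lower members, 19 have a change above 0 in both genotypes, or 11 with equal array medians.

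The limma fit over all 21886 tested probe sets gives the background for the members. All 49 passed its filter on level. At an adjusted p under 0.05, 45 of the 49 members were called on mock, where 7.35% of all tested probe sets were called. On BRZ 26 of the 49 were called, where 0.617% of all tested were. On mock 18 of the 20 higher members were called, where 5.38% of tested probe sets were called higher, and 27 of the 29 lower ones, where 1.97% were called lower. On BRZ 11 higher and 15 lower members were called, where 0.297% and 0.32% were. The 26 called on BRZ were called on mock too, and they make up 26 of the 87 probe sets called in the same direction on both media. HYH, AT4G22470, 245736_at and 263128_at were called on neither medium. The rule used these same contrasts, so the counts follow from it. The count on BRZ was 6 when arf2 BRZ array 1 was left out and 16 when array 2 was. It was 11, 13 and 10 when Col BRZ array 1, 2 or 3 was left out, and 17 in the absence of arf2 mock array 1.

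A reading that took no part in the choice came from leaving out each array in turn, applying the rule to the other 10 and then reading the left-out array against the mean of the other genotype on its medium. Between 49 and 68 probe sets were chosen this way. The left-out array lay on the side of its own genotype for 94.4% to 100% of them. Over all probe sets 29.9% to 70.1% lay on a given side, depending on array and direction, both ends being on Col mock array 1. It was past 0.6 for 69.4% to 76.0% when an array of the groups with 3 arrays was left out. For arf2 BRZ arrays 1 and 2 it was 49.0% and 42.6%, where 1 array had stood for the group. Over all probe sets 1.52% to 13.6% were past 0.6 in either direction on the same arrays. The arrays it was read against had taken part in the choice.

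**Figure D4:**
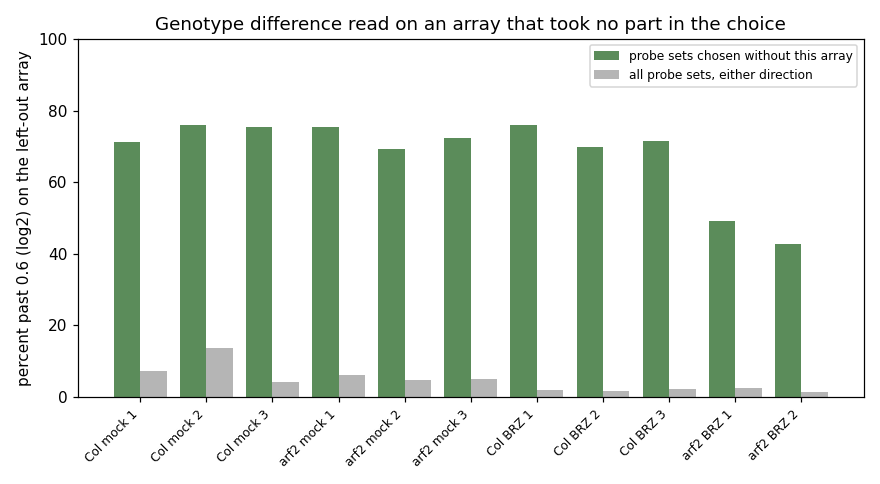
Percent of probe sets whose left-out array (x axis) differed by at least 0.6 on the log2 scale from the mean of the other genotype, in the direction of the rule for those chosen on the other 10 arrays (green) and in either direction for all probe sets (grey). The share was lowest for arf2 BRZ arrays 1 and 2, at 49.0% and 42.6%.

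The rule did not limit the gap between the 2 arf2 BRZ arrays. It did use their mean and their order against Col, so the gap is not independent of the choice. The median gap between them was 0.27 on the log2 scale over the 49 members and 0.11 over all tested probe sets. It exceeded 0.6 for 9 members, against 1.11% of tested probe sets. Without arf2 BRZ array 1 the difference on BRZ became -0.30 for AT5G57760 and -0.33 for HYH, and without array 2 it became -0.94 and -0.98. No other array moved these 2 values by as much. By leaving out 1 array at a time, 17 members met the rule in all 11 cases, among them AT3G05170, AT1G04560, AT1G04800, 247468_at and the lectin probe set. A further 13 met it in 10 cases. AT4G22470 met it in 6, the fewest, and AT2G42220 in 7. Without arf2 BRZ array 2 there were 35 higher members and 33 lower ones, and 16 and 22 of these belonged to the 49.

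The split between directions depended on the scaling of the arrays. It was 20 higher and 29 lower as deposited, 16 and 36 after quantile normalization, and 10 and 49 with equal array medians. With equal medians 9 of the 20 higher and 28 of the 29 lower members still met the rule. Leaving out Col mock array 2 together with arf2 mock array 3 gave 22 higher and 32 lower members, of which 17 and 26 were among the 49. Without Col mock arrays 1 and 2 there were 18 and 38, and 19 and 39 without arf2 mock array 3 as well. In both cases 13 of the 20 higher and 26 of the 29 lower members were kept.

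Values just beside the threshold show where it fell. PSAE-1, a photosystem I subunit, had differences of -0.59 and -0.62 on mock and BRZ, and PORB had -0.68 and -0.59. Both met every other condition and missed the threshold narrowly on 1 medium. Just inside were AT5G57760 at -0.97 and -0.62 and 247151_at at -0.76 and -0.60. On the higher side AT1G70810 was just outside, at 1.19 and 0.59, and AT4G22470 just inside, at 0.60 and 0.61. The limit on BRZ left out AT1G55240, with genotype differences of -3.52 and -2.71, whose mean changed by -0.64 with BRZ in Col, and AT4G18425, which changed by 0.62 in arf2. ATHSP22.0 was just inside that limit, with a change of -0.59 in arf2.

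Levels were set beside those of the array as a whole. The rule bears on them, since a probe set at the floor in both genotypes cannot differ by 0.6. The median of the members' mean log2 levels was 6.52 for the higher and 7.81 for the lower members, against 5.997 for all probe sets. A group mean of at least 9 was reached by 14 of the 29 lower members (48.3%) and 4 of the 20 higher ones, against 15.4% of all probe sets. Dim probe sets, with no group mean of 6 or more, made up 6 of the 49 members (12.2%) and 47.0% of all. The only member whose ID marks possible cross-hybridisation was the lectin probe set, 2.04% of members against 4.66% of all probe sets. No member had identical values on the 2 arf2 BRZ arrays, against 2.25% of all probe sets, a share that would leave about 1 of 49.

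The 17 members named for 1 gene were spread over the chromosomes, with 4 each on chromosomes 1, 2 and 4, 2 on chromosome 3 and 3 on chromosome 5. The 31 unnamed members have no position here, so whether they lie near each other or near ARF2 was not tested. Of the genes named on the array, 25.7%, 16.3%, 20.5%, 14.6% and 22.4% lie on chromosomes 1 to 5. Apart from the lectin pair, no named members were within 10 gene places of each other in the supplied gene table, the nearest being AT1G04560 and AT1G04800 at 26 places, which moved in opposite directions. On the chromosome of ARF2, AT5G59930 was 216 places from it, AT5G57760 was 447 and AT5G02440 was 5571. The genes directly next to the named members were measured in 17 cases. None passed 0.6 on both media in the direction of its neighbour, and AT1G54860 did so on mock alone. AT2G43580 and AT2G43600, chitinase family genes on each side of AT2G43590, differed by -0.07 and 0.08 on mock and by 0.18 and -0.01 on BRZ. AT4G29260, the HAD phosphatase gene beside AT4G29270, differed by -0.19 and 0.00 (0.0019 before rounding).

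Lists of genes of related pathways, each gene read from its brightest named probe set, gave few calls on both media. The lists were drawn by the start of the gene symbol. Of 209 genes matched, 28 organelle genes and 16 others that only share the start of their symbol were taken out after the values were seen. Calls are limma's at an adjusted p under 0.05, and the shares called over all tested probe sets are those given above. An unadjusted p under 0.05 was reached by 20.6% of tested probe sets on mock and 9.65% on BRZ, and the medians over all tested were 0.05 and 0.01 (0.005). ATHSP22.0 was the 1 member found in any of these lists.

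Of 13 measured genes of the auxin list, 3 fell in arf2 on mock and 1 on BRZ, and 0 rose. On mock 3 and on BRZ 2 had an unadjusted limma p under 0.05 in either direction. No PIN, LAX, AUX1, SAUR, ARF, TIR1 or AFB gene was among the 13, so auxin transport was not examined. GH3.3, whose enzyme conjugates auxin to amino acids, fell on both media (-1.36 and -2.38). HAT2 (-0.85) and LBD29 (-0.93), genes of transcription factors, fell on mock. The median of the list was -0.14 on mock and 0.01 on BRZ.

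Of 56 cell wall genes, 2 rose and 8 fell on mock, and 1 rose and 3 fell on BRZ, with medians of -0.07 and -0.06. An unadjusted limma p under 0.05 was reached by 19 of them on mock and 12 on BRZ. PME61 was called in opposite directions, at -1.56 on mock and 0.82 on BRZ. EXPA16, left out of the members by name, and PMEPCRF fell on both media. Among 23 peroxidase and redox genes 3 rose and 1 fell on mock, and 1 rose and 0 fell on BRZ. Of these genes 10 on mock and 5 on BRZ had an unadjusted limma p under 0.05. The gene that rose on both media was the glutathione transferase gene GSTU25 (1.296 on mock and 1.249 on BRZ). Both medians of that list were near 0, at 0.02 and -0.02.

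Of 19 nuclear light and photosynthesis genes, 2 rose and 2 fell on mock, PSAE-1 and PORB being those that fell. On BRZ 0 of them were called, and 7 on mock and 5 on BRZ had an unadjusted limma p under 0.05. Their median was 0.05 on mock and -0.14 on BRZ. Of 16 defence genes 4 rose and 0 fell on mock and 0 were called on BRZ, with 7 and 2 at an unadjusted p under 0.05 and medians of 0.01 and 0.00 (0.0014 before rounding). Of 3 heat shock genes 2 rose on mock, HSA32 and ATHSP22.0, and 0 were called on BRZ, where 1 had an unadjusted p under 0.05. Their medians were 0.78 and 0.09.

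Of 19 transport genes 0 rose and 1 fell on mock and 0 rose and 1 fell on BRZ, with 4 at an unadjusted p under 0.05 on each medium and medians of 0.04 and -0.07. SWEET3 (-1.28) fell on mock and SWEET11 (-0.93) on BRZ, both of a family of sugar transporters. Of 10 phenylpropanoid and glucosinolate genes 1 rose on mock and 0 were called on BRZ, with 2 and 1 at an unadjusted p under 0.05. The 4 gibberellin and ethylene genes, the clock gene GI and the brassinosteroid receptor gene BRL1 gave 0 calls on either medium, with 2, 1 and 0 at an unadjusted p under 0.05 on mock and 0, 1 and 0 on BRZ. GI and BRL1 were the only genes read from much longer clock and brassinosteroid lists. Listed genes such as DWF4, CPD and BZR1 were not read, so neither pathway was examined as a whole.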

How the data were processed

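RNA from 11 samples of dark-grown Arabidopsis seedlings was measured on Affymetrix ATH1 arrays. The deposited values are gcRMA intensities per probe set on a linear scale, and the authors used simpleaffy for quality control, per the labels and the series' design text. No versions are given in the sources used here. The submitters left out 1 array of arf2 on BRZ. Arrays give no counts, and their number limits the precision.

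The log2 of each value was taken and the rule was applied to the 22746 probe sets left after 64 controls. limma 3.58.1 in R 4.3.3 fitted 1 mean per group to all 11 arrays for the 21886 probe sets that exceeded 4 on the log2 scale on 2 or more arrays, with Benjamini-Hochberg adjusted two-sided p-values. SE are from that fit. The script was tested on simulated data. Figures were drawn with matplotlib 3.10.9 in Python 3.11.15. Gene names came from the supplied platform annotation and the gene table of TAIR10.1, whose coordinates are not printed. A leading AT before a gene symbol was dropped when symbols were matched to lists. Promoter motifs were planned but no promoter sequences were used here.

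The members, lists and alternatives were chosen with earlier results of these data known. The rule for named genes took the first 12 higher and first 12 lower members that name 1 gene, ranked by the smaller of their 2 absolute differences, which covered all of them, and members in the lists, with neighbours or nearest the threshold. The probe set naming 2 genes, unnamed probe sets, neighbouring genes and genes of the lists were singled out after their values were seen. Same-numbered arrays of different groups correlated between -0.59 and 0.14 after subtraction of group means (15 pairs, 3 over 0.1), so the replicate number was not taken as a pairing. Some mock arrays with different numbers correlated more strongly. The correlation was 0.60 for arf2 array 3 with Col array 2, 0.48 for arf2 array 1 with Col array 3 and -0.44 for arf2 array 1 with Col array 2. The part of this in the SE was not tested.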

Additional observations from a re-analysis of the deposited data

How the results depend on the processing

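The counts of members depend most on the rule's own thresholds. A genotype threshold of 0.5 gave 49 higher and 47 lower members, 0.8 gave 5 and 8, and 1 gave 1 and 4. Without the BRZ limit there were 72 and 62, and a limit of 0.4 left 19 lower. A minimum log2 level of 6 in the higher genotype left 13 higher, and equal array medians gave 10 higher and 49 lower. Leaving out 1 array gave 16 to 35 higher and 26 to 34 lower members. The replicate block kept 19 of the 20 higher and 28 of the 29 lower members, and gave 26 and 29 in all.

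limma's calls over all probe sets numbered 1609 on mock and 135 on BRZ. Without 1 array they ran from 882 to 3040 on mock and from 49 to 257 on BRZ. The replicate block gave 66 calls on BRZ and array weights 903. Leaving out Col mock array 2 together with arf2 mock array 3, chosen after seeing the data like the next 2 sets, gave 342 on BRZ. Without Col mock arrays 1 and 2 there were 737 on mock and 352 on BRZ, and 858 and 688 without arf2 mock array 3 too. The cause was not tested. The members called on mock were 45, or 37 to 47 without 1 array. On BRZ they were 26, or 6 to 35 without 1 array, 11 with the block, 47 with array weights and 42 without those 3 arrays. On both media they were 26, or 6 to 33 without 1 array, 10 with the block and 41 with weights. The interaction gave 0 called members under each of these settings. Of 570 recomputed differences of the named members and 247468_at, 0 changed sign and 17 moved by more than the SD between replicates.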
